A study of Mus musculus with 4 samples.

Results

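*Hmga1*, *Hmga2*, *Lin28b*, *Igf2bp1*, *Igf2bp2* and *Igf2bp3* were followed in LSK cells that had lost the homeodomain factor Meis1. They are 6 of the 28095 gene names on the array, and 14 of its 41174 probes carry a name of theirs. The 6 genes were selected on measured values, the genotype difference of *Hmga2* in these same arrays among them, together with their place in a known regulatory axis. Differences between the genotypes at these probes are therefore given as a description, with no p-value. Where a probe of theirs is said to meet the criteria of the methods (unadjusted p under 0.01, change over 2-fold), this describes the values that the choice rested on and supports nothing. The 14 probes fall into 1 for *Hmga1*, 3 for *Hmga2*, 3 for *Lin28b*, 3 for *Igf2bp1*, 1 for *Igf2bp2* and 3 for *Igf2bp3*. Only 5 of them passed the filter on dim spots and entered the comparison of genotypes, and 8 were not well above background on any array.

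LSK cells, bone marrow cells without lineage markers that carry Sca-1 and c-Kit, contain hematopoietic stem cells (HSCs) and early progenitors. The Meis1-KO cells came from *Mx1-Cre*-positive Meis1 fl/fl mice, in which exon 8 of *Meis1* lies between loxP sites, and the Meis1-WT cells from *Mx1-Cre*-negative Meis1 fl/fl mice, so that both genotypes carried the floxed alleles on a C57BL/6J background. Mice were 4 to 8 weeks old when treated, LSK cells were sorted 1 week after poly(I:C), and each genotype gave 2 pools of 6 mice with 1 one-color array per pool. The Cre of *Mx1-Cre* mice is driven by an interferon-responsive promoter, which acts in more tissues than blood. The sample labels and the methods on mice describe 4 intraperitoneal injections of poly(I:C), at 1.5 µg per g, for both genotypes. The design text and the methods on arrays instead call the controls sham-treated, so that genotype and poly(I:C) treatment cannot be told apart from these descriptions. Arrays numbered 1 shared slide 1, and arrays numbered 2 shared slide 2.

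HMGA proteins bind the minor groove of AT-rich DNA and bend it, which changes how other factors reach chromatin. *Hmga2* is known as a fetal gene that let-7 microRNAs hold down in adult cells through sites in its 3′ untranslated region. *Lin28b* encodes an RNA-binding protein that blocks the maturation of let-7 precursors, and in the blood system the Lin28b, let-7 and Hmga2 axis is known for the switch from fetal to adult HSC behavior. The 3 Igf2bp proteins (IMPs) bind mRNAs and affect their stability and translation. *Igf2bp1*, *Igf2bp3* and *Lin28b* are themselves known let-7 targets, and *Igf2bp2* is a known target of Hmga2.

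The values below are the log2 of the processed signal minus the 75th percentile of the same array, so that 0 is the level of that percentile. In processed signal it was 145 and 88.9 on Meis1-KO arrays 1 and 2, and 144 and 151 on Meis1-WT arrays 1 and 2. Differences on slide 2 therefore depend on this scaling more than those on slide 1. Values of different probes cannot be set against each other. Of the spots, 56.6% and 49.2% were well above background on Meis1-KO arrays 1 and 2, against 57.4% and 54.7% on Meis1-WT arrays 1 and 2. Meis1-KO array 2 stood apart, with correlations of 0.891 to 0.916 with the other arrays across probes, where those 3 arrays correlated at 0.956 to 0.967 with each other. The deleted gene was lower in the samples labelled Meis1-KO at both of its probes. Probe A_52_P670612 (chr11:18911247-18911306, mm9) read 0.28 and 0.24 in Meis1-KO and 1.04 and 1.47 in Meis1-WT LSK cells. Probe A_52_P26195 (chr11:18781206-18781265) read -2.44 and -3.52 against -1.52 and -1.04 and was not well above background on Meis1-KO array 2. Where these *Meis1* probes lie relative to exon 8 was not analysed here. All 10 markers of HSCs and LSK cells were well above background on every array.

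*Hmga2* was the member with the largest genotype difference. Probe A_51_P288315 (chr10:119799670-119799729, mm9, minus strand) had a processed signal of 32.1 and 27.3 in Meis1-KO LSK cells and of 443 and 396 in Meis1-WT LSK cells. Its log2 values were -2.18 and -1.70 in Meis1-KO and 1.62 and 1.39 in Meis1-WT cells, which gave means of -1.94 ± 0.34 and 1.50 ± 0.17 (SD, n = 2 arrays each). Both Meis1-KO arrays lay far below both Meis1-WT arrays, by more than the spread within either genotype. The difference was -3.44 (SE 0.44), or 10.9-fold lower, and -2.13 after normexp background correction. It was -3.80 on slide 1 and -3.09 on slide 2, so that each slide showed it by itself. In array experiments on sorted populations, fewer cells that express a gene and less RNA per cell cannot be told apart.

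The same probe was above background in both genotypes. Its spot signal was 8.53 and 9.02 times the local background on the Meis1-WT arrays, and 1.57 and 1.79 times on the Meis1-KO arrays. The spots were well above background on all 4 arrays, so that the fold is not given as a bound, but its size rests on Meis1-KO spots close to background. Among the 22007 tested probes its difference was number 42 from the lowest, and it was number 14 among the 18861 probes that were well above background on all 4 arrays.

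The second *Hmga2* probe pointed the same way with a smaller difference. A_52_P300730 (chr10:119798739-119798798, minus strand) starts 931 bases from the first, toward the 3′ end of the minus-strand gene. Its processed signal was 32.0 and 21.3 in Meis1-KO and 85.6 and 81.5 in Meis1-WT LSK cells, and its log2 values were -2.18 and -2.06 against -0.75 and -0.89. All 4 spots were well above background and the genotypes did not overlap. The difference was -1.30 (SE 0.42), or 2.46-fold lower, with -1.43 on slide 1 and -1.17 on slide 2, and -0.42 after normexp background correction. It exceeded the spread between replicates, whose SDs were 0.088 in Meis1-KO and 0.10 in Meis1-WT cells. The difference at A_51_P288315 minus the difference at this probe was -2.37 on slide 1 and -1.92 on slide 2, both on the log2 scale.

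Probe A_52_P300730 is shown because its own sequence holds the letters that a let-7 seed pairs with. The seed of a microRNA is its bases 2 to 8, counted from the 5′ end, and pairs with a site in the target mRNA. Of 11 mouse let-7 and miR-98 mature sequences in RefSeq, 10 share the seed GAGGUAG, and mmu-let-7j has another. The match to that seed in DNA letters is CTACCTC. In the lines below, capitals mark the seed in the microRNAs and the match in 30 bases of a probe, all written 5′ to 3′ in the sense of the mRNA.
mmu-let-7a-5p: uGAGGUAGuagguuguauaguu
mmu-let-7g-5p: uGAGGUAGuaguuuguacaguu
mmu-miR-98-5p: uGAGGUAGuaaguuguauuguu
Hmga2, A_52_P300730, chr10:119798739-119798768 (mm9, minus strand): atcaaaacacactaCTACCTCttaagtccc
Igf2bp1, A_52_P295950, chr11:95819442-95819471 (mm9, minus strand): tggttttaatCTACCTCttagcaaaacaat

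In *Hmga2* the complementary letters ran on past the seed. Bases 2 to 12 of let-7g-5p were matched without a gap, 11 bases in all, against 10 bases for let-7a-5p and 9 for miR-98-5p. The window in *Igf2bp1* matched the 7 seed bases of each of these microRNAs and no further base. Across the array 126 of 41174 probes (0.306%) held CTACCTC in the sense of the mRNA, and 2 of the 14 probes of the 6 genes did. Of these 126 probes 66 were tested, A_52_P300730 itself among them. In Meis1-KO LSK cells 38 of the 66 (57.6%) were lower, beside 43.8% of all tested probes, with median differences of -0.11 and 0.082. By limma 0 of the 66 met the criteria of the methods, where 0.6% of all tested probes were called lower and 0.136% higher. With the slide as a block 0 of the 66 were called, beside 1.35% lower and 0.577% higher of all. Without the block 2 of the 66 had an unadjusted p under 0.05, beside 2.81% of all tested probes. The methods' *t*-test called 1, beside 0.105% lower and 0.0318% higher of all. That 1 was A_52_P300730, which is also among the 38 lower and the 2 with a low p. Its gene was chosen on these arrays, so that nothing is read from these counts. A match in a probe is a description of these letters and no evidence of a working site, and the microRNAs themselves were not measured here.

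The third *Hmga2* probe, A_52_P373357 (chr10:119811916-119811975), was designed on a cDNA and lies 12.2 kb from the first. It was not well above background on any array, with a processed signal of 1.97 and 2.37 in Meis1-KO and 1.74 and 2.91 in Meis1-WT cells. Nothing was therefore measured at this position in either genotype. Exons and untranslated regions of the build used by the array were not analysed here.

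**Figure D1:**
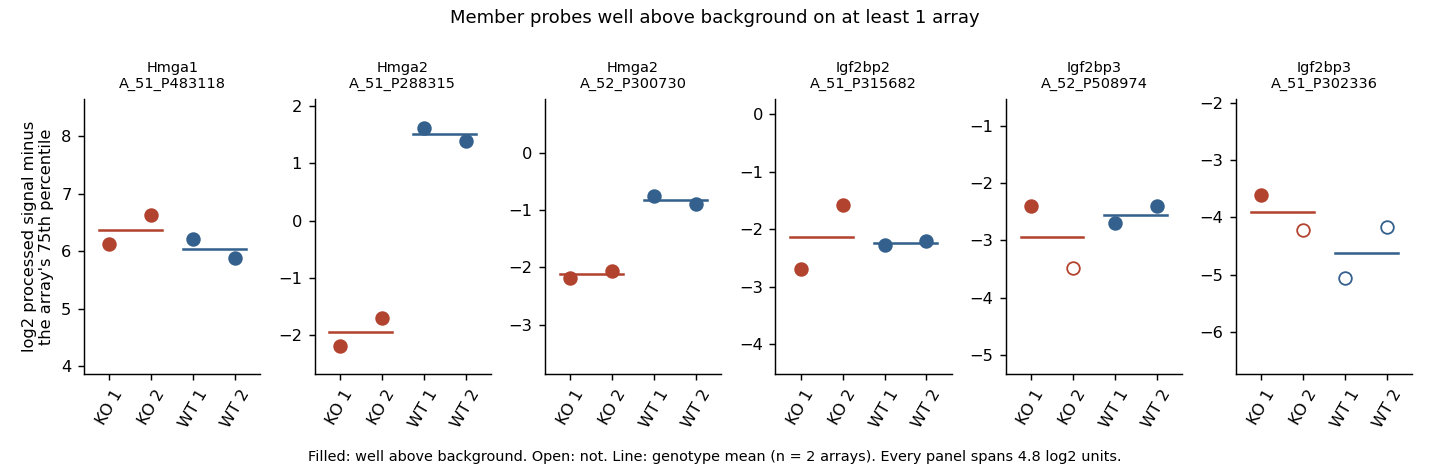
Log2 processed signal minus the 75th percentile of the array, for the 6 probes of the 6 genes that were well above background on at least 1 array, by array (red, Meis1-KO; blue, Meis1-WT; lines, means of 2 arrays; open circles, not well above background). Every panel spans the same number of log2 units, and the genotypes separate at both *Hmga2* probes and overlap at the other 4.

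*Hmga1*, which encodes the other HMGA protein, was bright in every sample and showed no such pattern. Its probe A_51_P483118 (chr17:27700543-27700602, plus strand) had a processed signal of 10107 and 8767 in Meis1-KO LSK cells and of 10681 and 8925 in Meis1-WT LSK cells. On the log2 scale this was 6.12 and 6.62 against 6.21 and 5.88, and the genotypes overlapped. The difference of 0.32 (SE 0.45) was within the spread, since it was -0.094 on slide 1 and 0.74 on slide 2. Its spot signal was 156 to 179.7 times the local background.

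*Lin28b* was not measured above background in either genotype. Probe A_52_P532355 (chr10:45140412-45140471, minus strand) had a processed signal of 2.20 and 2.49 in Meis1-KO and of 1.92 and 3.08 in Meis1-WT cells. A_52_P676861 (chr10:45096968-45097027) gave 1.79 and 2.07 against 1.57 and 2.55, and A_52_P357516 (chr10:45175317-45175376), designed on a cDNA, gave 2.02 and 2.29 against 1.77 and 2.77. None of the 12 spots of the 3 probes was well above background, and their signal was 0.979 to 1.20 times the local background. No fold is given, because both genotypes were at the floor of the measurement.

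The negative control spots of the same arrays show where that floor lies. They had a median processed signal of 1.94 and 2.21 on the Meis1-KO arrays and of 1.69 and 2.71 on the Meis1-WT arrays. The lowest signal of any spot called well above background was 8.05 and 9.496 on the Meis1-KO arrays and 7.23 and 11.8 on the Meis1-WT arrays. Every *Lin28b* spot was below that signal, by 3.66-fold to 3.82-fold at the brightest *Lin28b* spot of each array. A level below it cannot be told from none on these arrays. *Lin28a*, which encodes the other Lin28 protein and is named Lin28 on the array, was likewise not well above background on any array at its 1 probe, with a signal between 1.49 and 2.39.

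**Figure D2:**
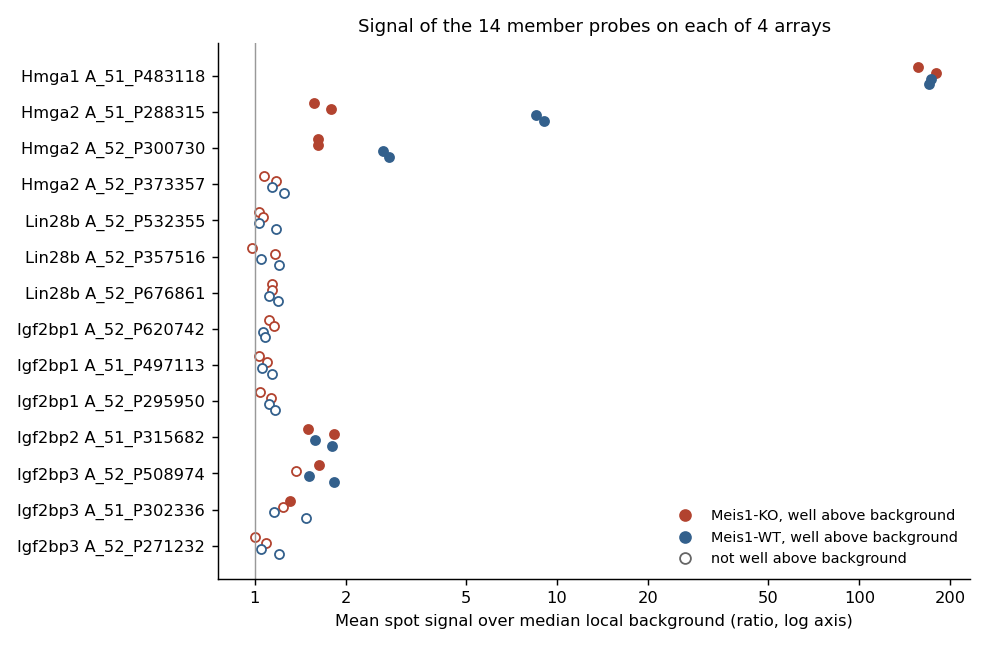
Mean spot signal over the median local background (ratio, log axis) for all 14 probes of the 6 genes on each of the 4 arrays (red, Meis1-KO; blue, Meis1-WT; filled, well above background; open, not). All probes of *Lin28b* and *Igf2bp1* lie close to 1 in both genotypes, *Hmga1* lies at 156 to 179.7, and A_51_P288315 of *Hmga2* lies at 1.57 and 1.79 in Meis1-KO and at 8.53 and 9.02 in Meis1-WT.

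The 3 Igf2bp genes differed in whether they were measured at all. *Igf2bp1* was not well above background on any array at A_52_P620742 (chr11:95823504-95823563), A_51_P497113 (chr11:95824526-95824585) or A_52_P295950 (chr11:95819412-95819471). The signals of these 3 probes ran from 1.77 to 2.46 in Meis1-KO and from 1.53 to 3.04 in Meis1-WT cells, at the level of the negative controls.

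*Igf2bp2* was measured on all 4 arrays, close to background. Probe A_51_P315682 (chr16:22059260-22059319, minus strand) had a signal of 22.5 and 29.9 in Meis1-KO and of 29.6 and 32.6 in Meis1-WT cells. Its log2 values of -2.69 and -1.57 against -2.28 and -2.21 overlapped. The difference was 0.12 (SE 0.53), with -0.41 on slide 1 and 0.64 on slide 2, and was smaller than the SD of 0.79 between the Meis1-KO arrays.

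*Igf2bp3* gave 3 probes that differed in detection. A_52_P508974 (chr6:49035710-49035769, minus strand) had a signal of 27.6 and 7.99 in Meis1-KO and of 22.2 and 28.5 in Meis1-WT cells, and the low value on Meis1-KO array 2 was not well above background. It passed the filter through the Meis1-WT arrays. The log2 values were -2.39 and -3.48 against -2.70 and -2.41, the genotypes overlapped, and the difference of -0.38 (SE 0.52) was 0.30 on slide 1 and -1.07 on slide 2. A_51_P302336 (chr6:49037849-49038456) had a signal of 11.9, 4.79, 4.30 and 8.44 in the same order and was well above background on Meis1-KO array 1 alone. Its position spans 608 bases for a probe of 60 bases, and it was not tested. A_52_P271232 (chr6:49057401-49057460) was not well above background on any array. The direction at A_52_P508974 thus rested on Meis1-KO array 2, the array with the fewest spots above background, and without it the difference was 0.16. The part of array quality in it was not tested.

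By these criteria 1 of the 5 tested probes of the 6 genes was called lower in Meis1-KO LSK cells, A_51_P288315 of *Hmga2*, and 0 were called higher. Over all tested probes limma called 0.6% lower and 0.136% higher. Both Meis1-KO arrays lay below both Meis1-WT arrays at 2 of the 5 probes, the 2 of *Hmga2*, against 10.8% of all tested probes, and above them at 0 of the 5, against 16.0%. Since the genes were chosen with this contrast known, nothing is read from these shares. Over all 22007 tested probes, 0 had a Benjamini-Hochberg adjusted p under 0.05 by limma, where 618 had an unadjusted p under 0.05 and the methods' *t*-test also left 0 after adjustment. With the slide as a replicate block, limma called 1.35% of all probes lower, A_51_P288315 remained the only probe of the 6 genes that was called, and 34 probes had an adjusted p under 0.05.

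**Figure D3:**
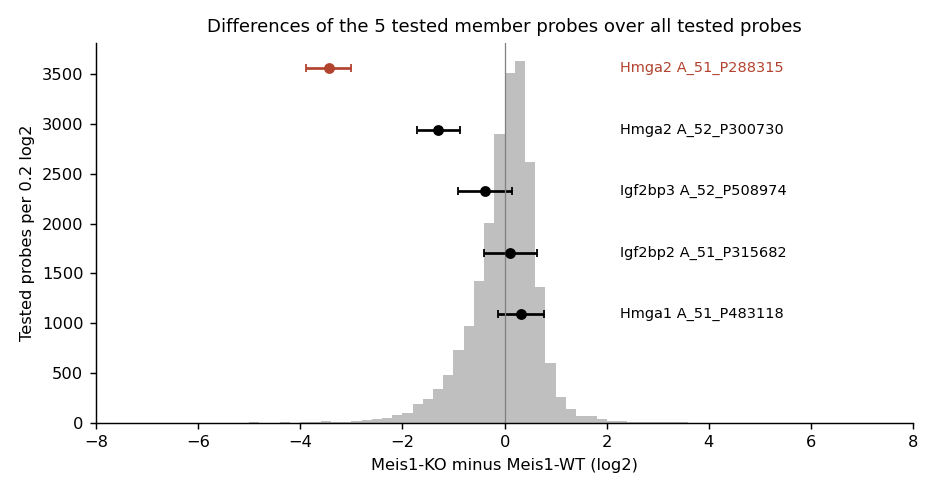
Difference between Meis1-KO and Meis1-WT LSK cells (log2, horizontal axis) for the 5 tested probes of the 6 genes (points; bars, SE of the limma fit; red, meets the criteria), drawn over the number of all 22007 tested probes per bin of the same difference (gray, vertical axis). The points are stacked only to keep them apart, and A_51_P288315 of *Hmga2* at -3.44 lies in the thin left tail while *Hmga1* and *Igf2bp2* lie in the bulk.

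Of the 14 alternatives, a different background correction moved the *Hmga2* differences most. After normexp correction, which adds an offset of 50 to the signal, the differences were -2.13 at A_51_P288315 and -0.42 at A_52_P300730, and the first still met the criteria. Over all 14 alternatives the first probe ran from -3.68 to -2.13 and the second from -1.37 to -0.42. The first met the criteria in 14 of 14 and the second in 1, by the methods' *t*-test. These are the arrays on which the gene was chosen, so that the counts are no independent support.

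**Figure D4:**
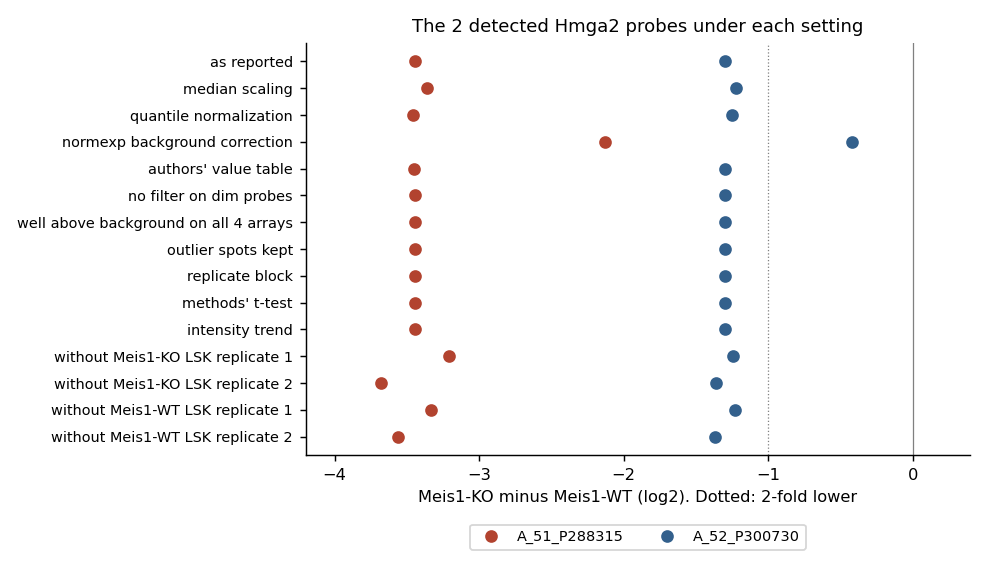
Difference between Meis1-KO and Meis1-WT LSK cells (log2, horizontal axis) at the 2 *Hmga2* probes that were well above background, as reported and under each of the 14 alternatives (rows). Red points are A_51_P288315 and blue points A_52_P300730, the dotted line marks 2-fold lower, and the points move most after normexp background correction, to -2.13 and -0.42.

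The genes around this axis were then counted in 6 lists of 53 genes, of which 41 had a tested probe. None of their 93 tested probes met the criteria in either direction (0 lower and 0 higher by limma, 0 with an unadjusted p under 0.05), where 0.6% of all tested probes were called lower and 0.136% higher. With the slide as a block 0 of the 93 were called, beside 1.35% lower and 0.577% higher of all tested probes. By the same fit 1 of the 93 had an unadjusted p under 0.05, beside 5.93% of all. The methods' *t*-test also called 0, beside 0.105% lower and 0.0318% higher of all. It gave 4 of the 93 an unadjusted p under 0.05, beside 2.42% of all. Without Meis1-KO array 1, which leaves the array that stood apart as the only Meis1-KO sample, 5 of the 93 probes were called lower and 1 higher, beside 7.88% and 2.34% of all tested probes. By the brightest tested probe, 23 of the 41 genes were lower and 18 higher in Meis1-KO LSK cells. Both Meis1-KO arrays were below both Meis1-WT arrays for 5 of the 41 and above for 8 of the 41, beside 10.8% and 16.0% of all tested probes, which is no result about these genes. Adjusted p-values of the 41 genes were 0.983 or above by limma.

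Among genes of Lin28 action and let-7 biogenesis, 7 of 9 tested genes were lower and 2 higher, with a median difference of -0.14 against 0.082 over all tested probes. On slide 1 by itself 1 of the 9 was lower, and on slide 2 by itself 7 were. *Zcchc6* and *Zcchc11*, which encode the terminal uridylyl transferases that act on let-7 precursors bound by Lin28 proteins, had the lowest differences. *Zcchc6* (A_51_P243695) read 3.09 and -0.22 in Meis1-KO and 3.003 and 2.16 in Meis1-WT cells, a difference of -1.15 (SE 1.06), and *Zcchc11* (A_52_P291715) read 2.94 and 1.22 against 2.92 and 2.08, a difference of -0.42 (SE 0.68). In both genes Meis1-KO array 2 was the low one, and without it the differences were 0.51 and 0.43. *Tarbp2*, which encodes a partner of Dicer, was higher on both Meis1-KO arrays (-1.33 and -0.02 against -2.20 and -1.35), by 1.10 (SE 0.61). Its spots were only 1.72 to 3.04 times the local background, and normexp correction took the difference to 0.63. *Dis3l2*, the nuclease that degrades uridylated let-7 precursors, differed by 0.14 (SE 0.43).

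The other known let-7 targets showed no common direction, with 6 of 13 genes lower, 7 higher and a median of 0.18. *Mycn*, a Myc family transcription factor, was 3.89 and 4.86 in Meis1-KO and 4.69 and 5.63 in Meis1-WT cells. The genotypes overlapped, although the difference was alike on both slides, at -0.80 and -0.77. *Arid3a*, a DNA-binding protein, had a difference of -0.64 (SE 0.45) with no overlap, which normexp correction took to 0.014. At the other end *Ccnd1*, which encodes cyclin D1, differed by 0.49 (SE 0.42) with no overlap. Before scaling, its processed signals of 268 and 189 in Meis1-KO and 203 and 213 in Meis1-WT cells did overlap. *Cdc25a*, a phosphatase that activates cyclin-dependent kinases, differed by 0.38 (SE 0.76) with overlap.

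Insulin-like growth factor signaling is the pathway the Igf2bp genes are named for. The ligand *Igf2* and *Igfbp3*, *Igfbp2*, *Igfbp5* and *Irs1* were not well above background on any array, and *Igf1* and the noncoding *H19* only on Meis1-WT array 1 and, for *Igf1*, Meis1-KO array 1. None of these genes was tested. Of the 4 tested genes 3 were lower and 1 higher, with a median of -0.57. The scavenger receptor *Igf2r* was lower on both Meis1-KO arrays (1.54 and 0.67 against 1.85 and 1.91), by -0.77 (SE 0.49). *Igf1r*, the signaling receptor, differed by -0.57 (SE 0.68) and *Insr*, the insulin receptor, by -0.56 (SE 0.60), both with overlap and with Meis1-KO array 2 as the low one. *Igfbp4*, a binding protein, differed by 0.44 (SE 0.42) the other way.

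Of the Ink4 and Arf genes, *Cdkn2a*, which encodes p16 and Arf, is known to lie downstream of Hmga2 in stem cells. *Cdkn2a* was not well above background on any array, and *Cdkn2b*, which encodes p15, only on Meis1-WT array 1. *Cdkn2c*, which encodes p18, read 2.05 and 2.49 in Meis1-KO and 1.60 and 1.70 in Meis1-WT cells, a difference of 0.62 (SE 0.44). Both Meis1-KO arrays were above both Meis1-WT arrays here.

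The other high mobility group proteins, 7 tested genes, had a median of 0.26, with 3 lower and 4 higher. The lowest were *Hmgn5* at -0.43 (SE 0.53) and *Hmgb1* at -0.17 (SE 0.43), and the highest *Hmgn1* at 0.39 (SE 0.46) and *Hmgb2* at 0.34 (SE 0.51). None of these chromatin proteins came near the *Hmga2* difference. RNA-binding partners of the Igf2bp proteins had a median of -0.11, with 4 of 7 lower and 3 higher (1 lower on slide 1 and 4 on slide 2). The lowest were *Hnrnpu* at -0.74 (SE 0.65) and *Ybx1* at -0.27 (SE 0.45), and the highest *Syncrip* at 0.55 (SE 0.58) and *Elavl1* at 0.37 (SE 0.45).

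**Figure D5:**
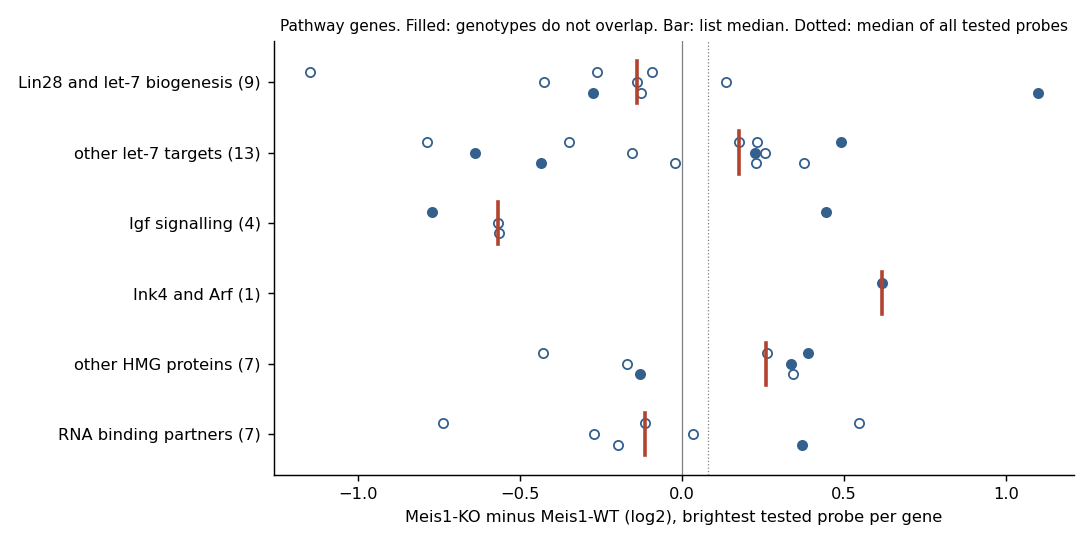
Difference between Meis1-KO and Meis1-WT LSK cells (log2, horizontal axis) for the brightest tested probe of each gene in the 6 lists around the axis (rows; number of tested genes in brackets; filled, genotypes do not overlap; red bars, list medians; dotted line, median of all tested probes). No gene of the lists met the criteria, and the widest differences were -1.15 for *Zcchc6* and 1.10 for *Tarbp2*.

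The genes whose pattern over the 4 arrays was most like that of A_51_P288315 were sought among 11061 genes well above background on all arrays, each by its brightest probe, as the root mean square distance of log2 values after each probe's own mean was taken off. *Trpc6*, a cation channel, was nearest at 0.52, with -2.18 and -1.93 in Meis1-KO and 0.47 and 1.62 in Meis1-WT cells. It was followed by *Cyp26b1*, an enzyme that breaks down retinoic acid, at 0.60, and by LOC639988 (chr12:116481063-116481122, mm9) at 0.63. Over 4 arrays in 2 genotypes this distance is set largely by the genotype difference itself.

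Marker lists of other cell types were read beside these results, as the sum of linear levels over the tested genes of a list, each divided by the 75th percentile of its array. Of 8 erythroid genes 6 to 8 were well above background on each array, and their sum was 104 and 252 in Meis1-KO against 93.7 and 31.9 in Meis1-WT cells. *Hbb-b1*, a beta globin gene, carried most of that sum (6.58 and 7.95 against 6.33 and 4.49 on the log2 scale), while 4 of the 6 tested erythroid genes were lower, with a list median of -0.31 and a difference of -1.77 (SE 0.52) at *Car1*. Of 7 T lineage genes 2 to 4 were, with *Cd3e* and *Cd3g* on no array, and the sum was 0.306 and 0.402 against 0.526 and 0.545. The sums overlapped between genotypes for the B lineage, plasma cell, granulocyte and monocyte, and megakaryocyte lists, and the B lineage genes *Pax5* and *Igll1* were not well above background on any array. All 6 tested plasma cell genes had a lower mean in Meis1-KO cells, with a list median of -1.68 against 0.082 over all tested probes, but the slides differed. On slide 1 all 6 were lower, and on slide 2 only *Sdc1* and *Irf4* were, by -0.29 and -1.16, while *Igj*, *Xbp1*, *Mzb1* and *Tnfrsf17* were higher by 0.79 to 1.73. *Irf4* was not well above background on Meis1-KO array 2. By limma, *Elane*, a neutrophil protease, met the criteria at -1.58 (SE 0.42), and *Hlf* of the HSC list at -2.42 (SE 0.55). They were the only marker genes to do so at their brightest probe, each with an adjusted p of 0.983. Over all tested probes 0.6% were called lower. Of the granulocyte and monocyte list 5 of 7 tested genes were lower, while *Mpo* and *Ctsg* were higher by 0.56 and 0.92. In the HSC list 6 genes were lower and 4 higher. With the slide as a block *Irf4* and *Car1* met the criteria too, at adjusted p-values of 0.337 and 0.367, where 1.35% of all tested probes were called lower. The markers named here were picked after their values were seen. The part of other cell types in the *Hmga2* values was not tested.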

How the data were processed

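Total RNA of sorted LSK cells (10 ng per pool) was amplified and Cy3-labeled for 4 arrays of 60-base probes. The authors deposited spot intensities from Feature Extraction (9.5.3.1 in the file headers, 9.1 in the submitters' processing notes), background-subtracted and detrended within an array but not scaled between arrays, and a surrogate value stands in for 25.2% to 33.2% of spots. A value table of the series holds the same intensities within 0.496%. Positions are those of the array annotation on mm9.

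After removal of control spots and outliers, spots of a probe were averaged and log2 intensities were reduced by each array's 75th percentile. Samples were grouped by their titles. Testing took the 22007 probes that 1 genotype or both had well above background on both of its arrays, and used limma 3.58.1 (lmFit, eBayes; R 4.3.3), genotype as the only term and Benjamini-Hochberg adjustment over all tested probes. Pools are the replicates, and their number limits the precision, since 2 against 2 arrays allow no two-sided exact permutation p below 0.333. Same-numbered arrays shared a slide, which the files record, and their deviations correlated at 0.266. The slide was therefore also fitted as a replicate block. The fit was tested on simulated data with changes of known size.

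The members and gene lists were chosen with earlier results of these data known. All member probes and *Meis1* are named, with the 2 highest and 2 lowest genes of each list by the brightest probe, and the 3 genes nearest to *Hmga2* in pattern. Alternatives to these choices were the block, the methods' *t*-test, scaling by medians or quantiles, an intensity trend, normexp correction (offset 50), the authors' value table, inclusion of outlier spots, inclusion of dim probes, detection required on all 4 arrays, and omission of each array. The let-7 sequences are from RefSeq. Exon annotation and protein sequences were not used here.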

Additional observations from a re-analysis of the deposited data

How the results depend on the processing

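A_51_P288315 of *Hmga2* met the criteria under all 14 alternatives, and the difference at A_52_P300730 ran from -1.37 to -0.42. Alternatives that change only the test or the set of probes leave a difference as it is. By the methods' *t*-test, 2 instead of 1 of the probes of the 6 genes were called lower. *Hmga1* ran from 0.0044 (quantile scaling) to 0.58. *Igf2bp2* turned to -0.45 without Meis1-KO replicate 2. *Igf2bp3* turned to 0.20 after normexp correction and to 0.16 without Meis1-KO replicate 2. The counts over all probes moved more than the members did. Against 132 lower and 30 higher (162 in all), there were 45 and 2 (47) after normexp correction, 44 and 10 (54) with all 4 arrays above background, 297 and 127 (424) with the replicate block, 23 and 7 (30) by the methods' *t*-test, 85 and 16 (101) with an intensity trend, and 101 higher (295) without the filter on dim probes. With 1 array left out, which lends the single remaining array the spread of the other genotype, the counts ran from 60 to 1734 lower, 34 to 516 higher and 111 to 2250 in all. The highest came without Meis1-KO replicate 1 and the lowest total without Meis1-WT replicate 1.

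Several neighbors of the axis changed sign. With 1 array left out the differences ran from -2.80 to 0.51 for *Zcchc6*, -1.28 to 0.43 for *Zcchc11*, -0.025 to 0.30 for *Dis3l2*, -0.58 to 1.34 for *Cdc25a*, -1.50 to 0.36 for *Igf1r*, -1.28 to 0.15 for *Insr*, -0.97 to 0.11 for *Hmgn5*, -0.37 to 0.036 for *Hmgb1*, -0.16 to 0.84 for *Hmgb2*, -1.62 to 0.15 for *Hnrnpu*, -0.56 to 0.020 for *Ybx1* and -0.14 to 1.23 for *Syncrip*. All these turns came without Meis1-KO replicate 2 except that of *Dis3l2*, which came without Meis1-WT replicate 1, as did a second turn of *Cdc25a* (-0.20). *Arid3a* turned to 0.014 after normexp correction and *Hmgb2* to -0.028 after quantile scaling. The cause was not tested in any of these. The block changed no call among the member probes and the 6 pathway lists, and among the markers it added *Irf4* and *Car1*. The 8 probes at the floor of the arrays limit what can be said of *Lin28b* and *Igf2bp1*.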
